A study of Mus musculus with 11 samples.

Results

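The Argonaute genes Ago1, Ago2, Ago3 and Ago4 and the GW182 genes Tnrc6a, Tnrc6b and Tnrc6c encode the proteins through which microRNAs (miRNAs) silence messenger RNAs. These 7 genes were taken by symbol from a count table of 39017 mouse genes, through the Ensembl identifier of each row, and all 7 were counted in every library and passed the filter on low counts in both tissues. The libraries came from mice in which Dicer, the enzyme that cuts miRNA precursors, had been deleted conditionally by combining a homozygous floxed Dicer allele with a Camk2a-Cre transgene, and from control mice. Neocortex was sequenced from 3 knockout (KO) males (D5130, D5132 and D5133) and 3 control males (D5129, D5134 and D5135). The hippocampal CA1 region was sequenced from 2 KO males (D5130 and D5133) and 3 controls (D5134 and D5135, male, and D5138, female). All animals were 13 to 14 weeks old, each library came from 1 animal, and 4 animals gave both tissues. The labels do not state which alleles the control animals carried. The Camk2a promoter drives Cre in excitatory neurons of the forebrain, so glia, vessels and inhibitory neurons in the same tissue were not the target of the deletion.

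A miRNA acts only when it is held by an Argonaute protein, which presents its seed, bases 2 to 8, for pairing with messages. The Argonaute then binds a GW182 protein through tryptophans of that protein, and GW182 brings in the CCR4-NOT and PAN2-PAN3 deadenylases, which shorten the poly(A) tail and lead to decapping and decay. Of the mammalian Argonautes, Ago2 is the one known for cutting a fully paired target. Messages of the silencing machinery can carry miRNA sites themselves. For this reason the 3′ UTRs of the 7 genes were searched for matches to 9 miRNAs.

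The miRNA whose matches were shared most widely among the members was miR-30a-5p, and miR-26a-5p followed. Their mature sequences (RefSeq, GRCm38.p6) are shown with the seed in capitals, together with let-7a-5p, which had a match in Ago2. An 8mer site is the complement of the seed followed by A, searched on the transcript strand only: TGTTTACA for miR-30a-5p, TACTTGAA for miR-26a-5p and CTACCTCA for let-7a-5p. These letters do not overlap one another in the sites found.
miR-30a-5p: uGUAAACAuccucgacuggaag
miR-26a-5p: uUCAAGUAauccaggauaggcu
let-7a-5p: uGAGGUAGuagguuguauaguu

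The sites below lie in the 3′ UTRs of the 5 members that rose in the neocortex. The miR-30a-5p and miR-26a-5p matches recur among those members but are not particular to them. Ago3, which did not pass there, held both, and Ago4, which did not pass either, held one of miR-30a-5p. The let-7a-5p match is shown as one of Ago2, which rose and held neither. Each site shown is given in transcript direction with 11 bases on both sides and the 8mer in capitals. The GW182 miR-26a-5p sites shown, the one nearest the stop codon in each gene, lie at chr7:123193101-123193108 (Tnrc6a, plus strand), chr15:80929714-80929721 (Tnrc6b, plus strand) and chr11:117761433-117761440 (Tnrc6c, plus strand). A further miR-26a-5p site of Tnrc6b, not shown, lies at base 10864 of its UTR (chr15:80940340-80940347). The miR-30a-5p sites shown lie at chr7:123193673-123193680 and chr7:123194472-123194479 (Tnrc6a), chr15:80932185-80932192 (Tnrc6b), chr11:117762189-117762196 (Tnrc6c) and chr4:126437927-126437934 (Ago1, minus strand). The let-7a-5p site of Ago2 lies at chr15:73097982-73097989 on the minus strand.
Tnrc6a miR-26a-5p site: atcagtttgaaTACTTGAAtcatgcaggcc
Tnrc6b miR-26a-5p site: cactcttgaaaTACTTGAAtcatgaacgcc
Tnrc6c miR-26a-5p site: aaacatgcaaaTACTTGAAcccagcaggcc
Tnrc6a miR-30a-5p site, first: gtgaaccttctTGTTTACAgatttttttgt
Tnrc6a miR-30a-5p site, second: tggcttttaacTGTTTACAataggatgtga
Tnrc6b miR-30a-5p site, first of the 3: agagcccctctTGTTTACAagacataaatg
Tnrc6c miR-30a-5p site: gggctcccaccTGTTTACAgactttttttt
Ago1 miR-30a-5p site: ccatttgcttcTGTTTACAcaaatgaaatt
Ago2 let-7a-5p site: acaatgtggatCTACCTCAgttaaacagtt

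A miR-30a-5p 8mer was present in 6 of the 7 members, at 9 places in all, against 6.88% of the 20482 genes in the table with an annotated 3′ UTR. A miR-26a-5p 8mer was present in all 3 GW182 genes and in Ago3, against 4.2% of genes. Both were present together in 4 members and in 148 genes (0.723%). The miR-26a-5p sites nearest the stop codon, at base 150 of the Tnrc6a UTR and base 238 of the Tnrc6b UTR, were identical at 22 of the 30 bases printed, and the Tnrc6c site at base 582 matched Tnrc6a at 20 and Tnrc6b at 19. The 8 bases of the match are the same in every such pair by the way sites were found. All other pairs of miR-26a-5p sites among the members, which involve Ago3 or the further site of Tnrc6b, were identical at 12 to 14 of 30. Ago2 held neither site. Its UTR held 2 matches to miR-138-5p (CACCAGCA), 2 to miR-181a-5p (TGAATGTA) and 1 to let-7a-5p, which occurred in 4.33%, 5.25% and 3.10% of genes. Ago3 also held 1 match each to let-7a-5p, miR-181a-5p and miR-29a-3p (TGGTGCTA, 2.81% of genes), and Ago1 also held 1 to miR-138-5p. No member held an 8mer of miR-9-5p (ACCAAAGA, 4.15% of genes), miR-128-3p (CACTGTGA, 5.19%) or miR-125b-5p (CTCAGGGA, 4.68%). UTR length bears on such counts. The longest annotated 3′ UTRs were 12742 bases in Ago3, 11609 in Tnrc6b, 11064 in Ago2, 4491 in Ago1, 3682 in Ago4, 2588 in Tnrc6c and 2345 in Tnrc6a, where the median gene had 971. Per kilobase, Tnrc6a held 1.28 sites of the 9 miRNAs, Tnrc6c 0.77 and the other members 0.27 to 0.45, against 0.30 over all 3′ UTRs. A match describes the sequence and does not show that a miRNA binds there.

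**Figure D1:**
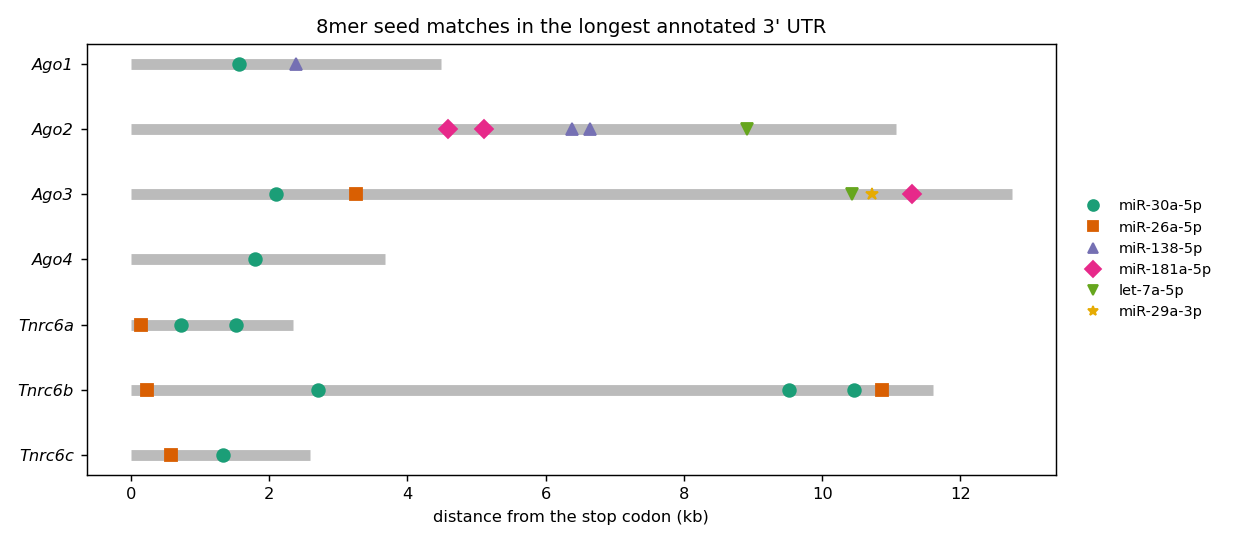
Positions of 8mer seed matches (symbols, by miRNA) along the longest annotated 3′ UTR of each gene (grey bars), as distance from the stop codon in kilobases. miR-30a-5p matches are present in every gene shown except Ago2. Each of the 3 GW182 genes has a miR-26a-5p match that starts within its first 582 bases. Tnrc6b has a second miR-26a-5p match near the far end.

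The members lie at 5 loci (GRCm38, positions as in the count table). Ago3 (chromosome 4, 126331704 to 126429541), Ago1 (chromosome 4, 126435012 to 126468583) and Ago4 (chromosome 4, 126489541 to 126533472) stand side by side on the minus strand within 201.8 kb, with gaps of 5470 and 20957 bases. Ago2 is on chromosome 15 (73095844 to 73184840, minus strand), as is Tnrc6b (80711319 to 80941086, plus strand). Tnrc6a is on chromosome 7 (123123885 to 123195288) and Tnrc6c on chromosome 11 (117654289 to 117762264), both on the plus strand. Sequence shared between members limits how far reads can be assigned. The longest identical run was 170 bases, between Ago1 and Ago3, and the next was 53 bases, between Ago1 and Ago2. All other pairs shared at most 38 bases. Ago2 overlaps exons of Chrac1 on the opposite strand, so in the unstranded CA1 libraries reads of these genes cannot be told apart there. The strand setting of the counting is not given, so the same may hold for the neocortex counts. Chrac1 itself differed by a log2 difference of 0.10 (SE 0.12; adjusted p = 0.717 by edgeR) in the CA1.

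Gene counts summed to between 43144097 and 58329441 reads in neocortex libraries and between 24806581 and 35684618 in CA1 libraries. Dicer1 was counted at 61.0 ± 2.16 CPM (reads of a gene relative to all gene reads of the library, after TMM scaling) in KO and 62.7 ± 3.6 CPM in control neocortex (SD, n = 3 each), and at 72.5 ± 1.23 CPM in KO and 72.7 ± 3.45 CPM in control CA1 (SD, n = 2 and 3). The log2 differences were -0.04 (SE 0.062; adjusted p = 0.797 by edgeR) and -0.003 (SE 0.068; adjusted p = 0.988 by edgeR). Reads over the whole gene say nothing of the floxed part alone, so the genotype labels are not checked by them. Camk2a, Slc17a7 and Nrgn, which mark excitatory neurons, each stood at 719 CPM or more in every library. Of 4 CA1 markers, 2 fell in KO CA1, where the list summed to 259 to 296 CPM in KO and 406 to 473 CPM in control libraries. Of 4 dentate gyrus markers 0 passed there by edgeR and 1 by DESeq2, and they summed to 224 to 259 CPM in KO and 224 to 292 CPM in control CA1 libraries, against 22.5 to 24.1 CPM in KO and 19.6 to 23.9 CPM in control neocortex, so the CA1 libraries also hold signal of dentate genes. Libraries of control D5134 stood apart, with 4 Y-linked genes summing to 69.5 CPM in the neocortex and 74.0 CPM in the CA1, where the other males had 154 to 188 CPM. Xist was at 21.1 CPM in the CA1 library of the KO male D5133, against 602 CPM in the female D5138 and 0.742 to 3.21 CPM in the other CA1 males. The mix of spike-in RNAs split the neocortex libraries into a set with D5129 (control) beside D5130 and D5132 (KO) and a set with D5133 (KO) beside D5134 and D5135 (control). Spike-in composition correlated by at least 0.995 inside a set and by at most 0.911 across sets.

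In the neocortex, 5 of the 7 members rose in KO mice, 0 fell and 2 did not pass, where 1.51% of 16971 tested genes rose and 1.2% fell. All 3 GW182 genes rose, by 1.34- to 1.45-fold, and Ago1 and Ago2 rose by 1.26- and 1.25-fold. Their KO and control libraries did not overlap for any of these 5 genes, a pattern with KO above control that 11.6% of tested genes had. The median log2 fold change of the 7 members was 0.34, against 0.00 over all genes tested. Differences were tested with edgeR's quasi-likelihood test, adjusted over all genes, and a direction means relative to the tissue's median gene. In bulk tissue, a change in the share of cells of a type and a change of RNA per cell cannot be told apart.

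Tnrc6c had 125, 129 and 133 CPM in KO animals D5130, D5132 and D5133, against 91.9, 75.7 and 98.8 CPM in the controls D5129, D5134 and D5135. Every KO library stood above every control, and the controls spread more widely than the KO libraries. The log2 difference was 0.54 (SE 0.085; adjusted p = 0.0118 by edgeR). Tnrc6b, a GW182 protein with a much longer 3′ UTR, had 116.5, 138 and 125 CPM in KO neocortex, against 93.9, 83.0 and 97.7 CPM in control neocortex. Its KO libraries were the more spread ones, with D5132 highest, and the log2 difference was 0.47 (SE 0.075; adjusted p = 0.0108 by edgeR). Tnrc6a had 121, 123 and 128 CPM in KO libraries, against 95.1, 85.6 and 96.9 CPM in control libraries. The log2 difference of Tnrc6a was 0.42 (SE 0.059), with the smallest edgeR adjusted p of the members in this tissue, 0.00602.

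Among the Argonautes, Ago2, the endonuclease of the family, had 146, 144 and 159.7 CPM in KO animals D5130, D5132 and D5133, against 126, 108 and 125 CPM in the controls D5129, D5134 and D5135. Ago1 had 116, 120.5 and 124 CPM in KO libraries, against 98.7, 86.5 and 99.9 CPM in control libraries. Both rose without overlap, by 0.32 (SE 0.067; adjusted p = 0.0273 by edgeR) for Ago2 and 0.34 (SE 0.063; adjusted p = 0.0164 by edgeR) for Ago1. Ago3 and Ago4, the neighbours of Ago1 on chromosome 4, did not pass. Ago3 had 72.8, 74.6 and 77.9 CPM in KO libraries and 74.6, 53.8 and 66.1 CPM in control libraries, and the groups overlapped through control D5129, with a log2 difference of 0.21 (SE 0.10; adjusted p = 0.323 by edgeR). Ago4, counted least of the 7, had 18.7, 21.4 and 19.5 CPM in KO libraries and 19.0, 17.6 and 17.7 CPM in control libraries, with a log2 difference of 0.13 (SE 0.082; adjusted p = 0.438 by edgeR).

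**Figure D2:**
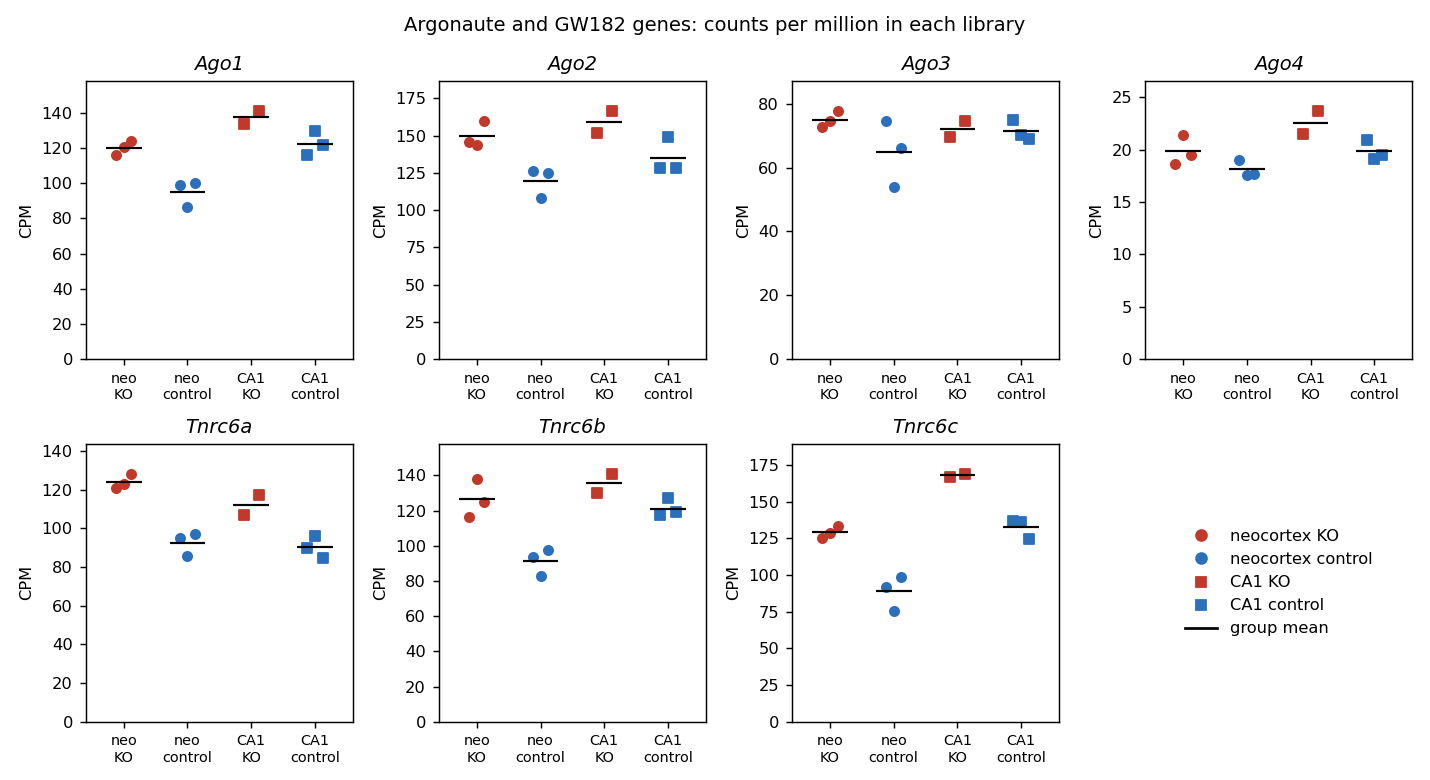
CPM (y axis from 0) of each gene in every library, with circles for neocortex, squares for CA1, red for KO, blue for control and a line at the group mean. In the neocortex the KO points of Ago1, Ago2, Tnrc6a, Tnrc6b and Tnrc6c lie above all control points, and in the CA1 the same holds for every gene but Ago3.

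Control D5134 was the lowest of the 6 neocortex libraries for all 7 members, and KO D5133 was the highest for 5. Without D5134 the same number of members, 5, passed, with log2 fold changes of 0.26 to 0.44 for those 5. Without D5133, 0 members passed (edgeR, where 16 genes rose and 3 fell in all), with log2 fold changes of 0.27 to 0.52 for the 5 and edgeR adjusted p of 0.062 to 0.187. Without D5132, 2 passed, Tnrc6a and Tnrc6b. Tnrc6a and Tnrc6b each passed in 5 of the 6 fits that left out 1 library, Tnrc6c and Ago1 in 4, and Ago2 in 3. With library sizes scaled by spike-in reads 0 passed (edgeR adjusted p of 0.3 for each). With the spike-in set as a term the 3 GW182 genes passed, and Ago1 (edgeR adjusted p = 0.0518) and Ago2 (edgeR adjusted p = 0.0708) did not. Within the set of D5133, D5134 and D5135 the 5 genes differed by 0.42 to 0.62 on the log2 scale, and within the set of D5129, D5130 and D5132 by 0.20 to 0.47. Ago3 differed by 0.38 in the first of these sets and by -0.018 in the other. Each set has a lone library in 1 group, which is assumed to vary like the other group.

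**Figure D3:**
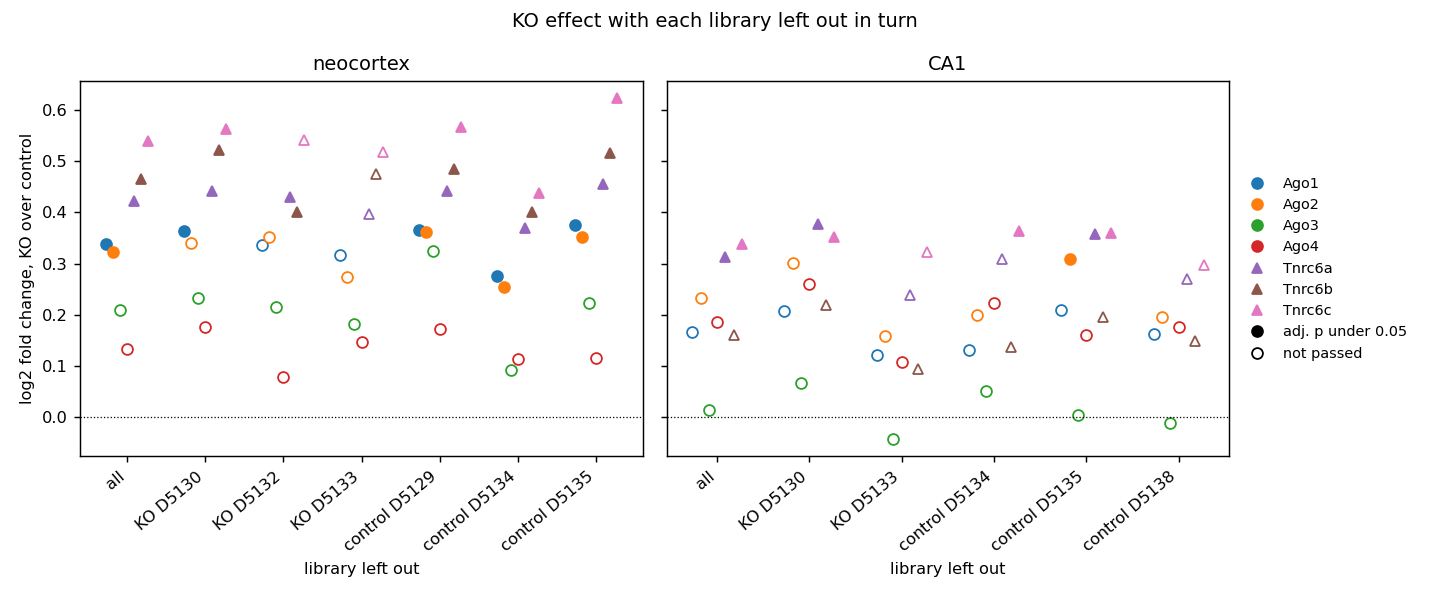
Log2 fold change of each gene, KO over control, with all libraries and with each library left out in turn (x axis), for neocortex and CA1. Filled symbols have an edgeR adjusted p under 0.05. The GW182 genes (triangles) stay highest in the neocortex, and all symbols are open when KO D5133 is left out in either tissue.

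In the CA1, 2 of the 7 members rose, the GW182 genes Tnrc6c and Tnrc6a, 0 fell and 5 did not pass. Of the 18274 genes tested there, 2.47% rose and 1.41% fell. The KO libraries stood above the controls for 6 of the 7 members, where 17.4% of tested genes had that pattern. The median log2 fold change of the 7 members was 0.19, against 0.00 over all genes tested.

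Tnrc6c had 166.5 and 169 CPM in KO animals D5130 and D5133, against 137, 136 and 125 CPM in control animals D5134, D5135 and D5138. The KO libraries differed little and the gap to the controls was wide. Its log2 difference was 0.34 (SE 0.063; adjusted p = 0.00835 by edgeR). Tnrc6a had 107 and 117 CPM in KO CA1, against 89.9, 95.8 and 84.9 CPM in control CA1, a log2 difference of 0.31 (SE 0.072; adjusted p = 0.0270 by edgeR). Tnrc6b had 129.9 and 141 CPM in KO CA1, against 117, 127 and 119 CPM in control CA1. The groups of Tnrc6b came close, and its difference of 0.16 (SE 0.066; adjusted p = 0.220 by edgeR) did not pass.

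No Argonaute gene passed in the CA1. Ago2 had 151.5 and 167 CPM in KO libraries, against 128.5, 149 and 128 CPM in control libraries, a log2 difference of 0.23 (SE 0.076; adjusted p = 0.114 by edgeR). Ago1 had 134 and 141 CPM in KO libraries, against 116, 129.5 and 121.5 CPM in control libraries, a log2 difference of 0.17 (SE 0.066; adjusted p = 0.198 by edgeR). Ago4 had 21.5 and 23.7 CPM in KO libraries and 20.9, 19.1 and 19.5 CPM in control libraries, a log2 difference of 0.19 (SE 0.096; adjusted p = 0.344 by edgeR). The groups did not overlap for these 3 genes. Ago3 had 69.6 and 74.7 CPM in KO libraries and 75.1, 70.3 and 68.9 CPM in control libraries. Its groups overlapped, and its log2 difference was 0.01 (SE 0.070; adjusted p = 0.949 by edgeR). D5133 was the highest CA1 library for 6 of the 7 members.

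The number of members called in the CA1 also changed when single libraries were left out. Over those fits the log2 fold change was 0.30 to 0.36 for Tnrc6c and 0.24 to 0.38 for Tnrc6a. Calls over all genes fell too, from 452 risen and 258 fallen to 177 and 67 without D5138. Without the female control D5138, which left 4 males, 0 members passed, with Tnrc6c at 0.30 (edgeR adjusted p = 0.0619) and Tnrc6a at 0.27 (edgeR adjusted p = 0.154). Without KO D5133, 0 passed, with Tnrc6c at 0.32 (edgeR adjusted p = 0.0677) and Tnrc6a at 0.24 (edgeR adjusted p = 0.206). Without D5134 only Tnrc6c passed. Without D5135 Ago2 passed as well, at 0.31 (edgeR adjusted p = 0.0299). Where 1 KO library remained, its spread was taken from the controls.

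**Figure D4:**
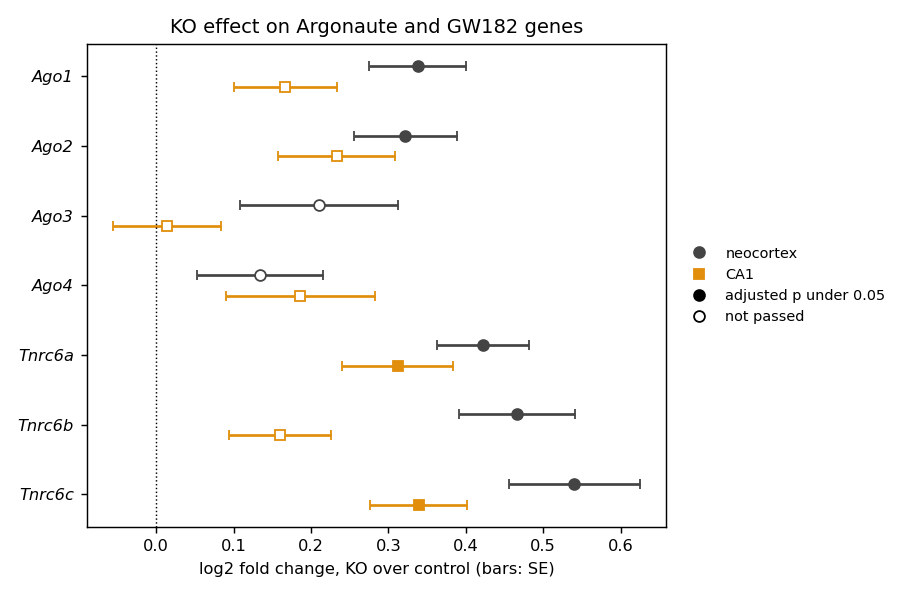
Log2 fold change, KO over control, of each gene in the neocortex (grey circles) and the CA1 (orange squares), with bars for the standard error. Filled symbols have an edgeR adjusted p under 0.05, which 5 neocortex symbols and 2 CA1 symbols do.

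Whether the KO effect differed between the tissues was tested as an interaction, CA1 effect minus neocortex effect, in 1 fit of the 11 libraries. For 0 of the 7 members did it pass, and DESeq2 also called 0. An unadjusted edgeR p under 0.05 was held by 1 of the 7 members and by 1831 of all 19256 genes tested. Of 19256 genes, 0.0935% passed. With the animal fitted as a block 36 genes passed as higher and 78 as lower in place of 11 and 7, again with 0 members. The blocked contrast rests only on the animals that gave both tissues, KO D5130 and D5133 and control D5134 and D5135. In that blocked fit 5 of the 7 members and 2283 of the 19256 genes had an unadjusted edgeR p under 0.05. Tnrc6b, with log2 fold changes of 0.16 in the CA1 and 0.47 in the neocortex, had a difference of -0.31 (SE 0.11; unadjusted p = 0.0108, adjusted p = 0.341 by edgeR). Ago3, Tnrc6c, Ago1, Tnrc6a and Ago2 had differences of -0.20 to -0.09, and Ago4 of 0.05. The sizes moved with the block, under which Ago3 stood at -0.35 (SE 0.12; unadjusted p = 0.00871, adjusted p = 0.206 by edgeR), Tnrc6b at -0.28 (SE 0.089; unadjusted p = 0.00666, adjusted p = 0.189 by edgeR), Tnrc6c at -0.28, Ago1 at -0.21, Ago2 at -0.20, Tnrc6a at -0.18 and Ago4 at 0.06. Kit and strandedness differed between the tissues, and their part in the difference was not tested.

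Levels of different genes were compared per length, as CPM per kilobase of annotated exon (RPKM). As counted, Tnrc6c ends at base 117762264 of chromosome 11, while the annotation that gave its exon length ends at 117763439. Its per-length level may therefore be too low. The effect on the order below, and on family shares and sums, was not tested. In KO neocortex the order was Ago1 (14.8 ± 0.481 RPKM), Ago2 (10.7 ± 0.617), Tnrc6c (10.1 ± 0.311), Tnrc6a (9.75 ± 0.311), Tnrc6b (5.34 ± 0.456), Ago3 (4.53 ± 0.156) and Ago4 (2.86 ± 0.203; SD, n = 3 for each). The ranges of Ago2 and Tnrc6c overlapped, as did those of Tnrc6c and Tnrc6a. In control neocortex Ago1 led at 11.7 ± 0.917 RPKM, followed by Ago2 at 8.54 ± 0.704, Tnrc6a at 7.28 ± 0.477, Tnrc6c at 6.92 ± 0.926, Ago3 at 3.91 ± 0.63, Tnrc6b at 3.87 ± 0.324 and Ago4 at 2.61 ± 0.116 RPKM (SD, n = 3 for each). Tnrc6a and Tnrc6c overlapped there, and so did Ago3 and Tnrc6b.

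In the CA1, Tnrc6c stood second. It had 13.1 ± 0.140 RPKM in KO and 10.3 ± 0.532 RPKM in control libraries, below Ago1 at 16.9 ± 0.650 RPKM in KO and 15.1 ± 0.825 RPKM in control libraries (SD, n = 2 and 3). Ago2, Tnrc6a, Tnrc6b, Ago3 and Ago4 followed in that order in both genotypes, and of neighbours in the order only Tnrc6c and Ago2 overlapped, in controls. Lengths of the longest coding transcript in place of exon unions placed Tnrc6a and Tnrc6c above Ago2 in all 4 groups, and Ago1 stayed first and Ago4 last.

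Within the Argonaute family, Ago1 made up 44.7% to 45.4% of the summed per-length level in KO and 42.8% to 44.4% in control neocortex. Ago2 made up 31.4% to 33.3% in KO and 31.7% to 32.1% in control neocortex, and Ago4 made up 8.23% to 9.44% in KO and 9.17% to 10.5% in control neocortex. In the CA1, Ago3 made up 12.1% to 12.2% in KO and 12.6% to 14.6% in control libraries. Of the GW182 family, Tnrc6c made up 39.3% to 40.4% in KO and 36.5% to 39.6% in control neocortex, and 46.5% to 48.3% in KO and 45.1% to 47.0% in control CA1. Tnrc6b made up 20.43% to 21.03% in KO and 21.8% to 23.5% in control CA1. Over all 7 members in both tissues, KO and control ranges were apart for Ago1 in the neocortex and for Ago3 and Tnrc6b in the CA1. They overlapped for the others. With so few libraries ranges can be apart by chance, and no such count was made for other gene families. These ranges carry no test.

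The summed level of the GW182 family was 25.2 ± 0.856 RPKM in KO and 18.1 ± 1.72 RPKM in control neocortex (SD, n = 3 each), a ratio of 1.39, and that of the Argonautes 32.9 ± 1.2 RPKM in KO and 26.8 ± 2.28 RPKM in control neocortex, a ratio of 1.23. In the CA1 the GW182 sum was 27.6 ± 1.04 RPKM in KO and 22.5 ± 1.04 RPKM in control libraries (SD, n = 2 and 3), a ratio of 1.22, and the Argonaute sum 35.9 ± 1.86 RPKM in KO and 31.9 ± 1.46 RPKM in control libraries, a ratio of 1.13. Argonaute level per GW182 level does not depend on the scaling of the libraries, but its size depends on the gene lengths used. By exon-union length it was 1.31, 1.28 and 1.33 in the neocortex KO libraries D5130, D5132 and D5133. The neocortex controls D5129, D5134 and D5135 had 1.53, 1.5 and 1.43. In the CA1 the ratio was 1.29 and 1.31 in KO and 1.37, 1.43 and 1.45 in control libraries. KO libraries stood below control libraries in both tissues. This ratio was chosen after the values were seen and carries no test.

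**Figure D5:**
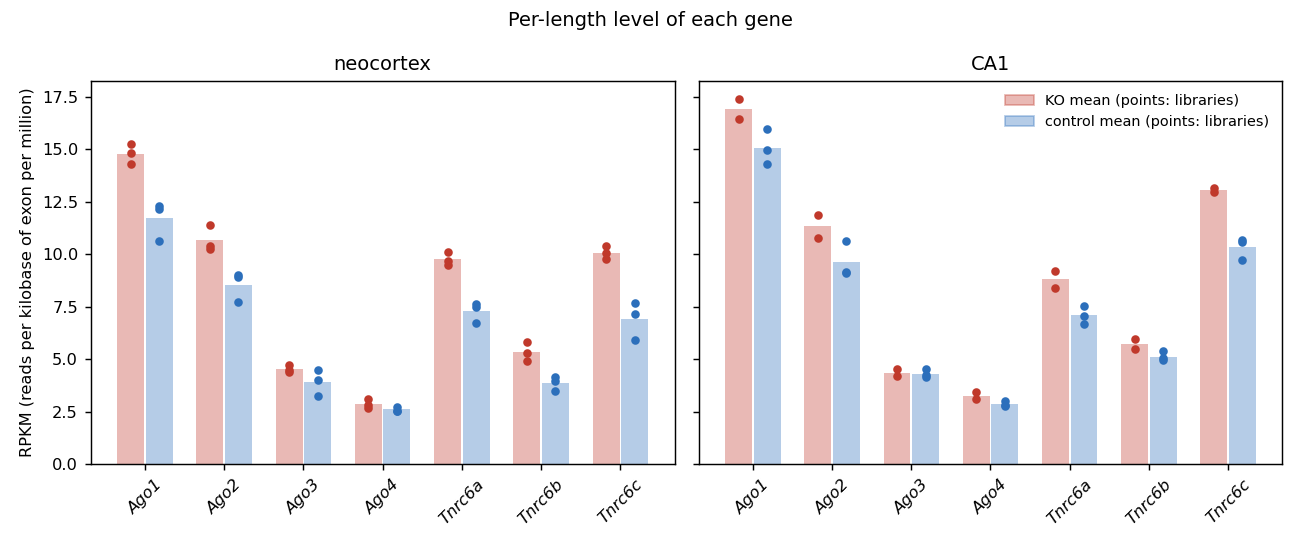
Per-length level (RPKM, y axis from 0) of each gene in KO (red) and control (blue) libraries of the neocortex and the CA1, with bars for group means and points for libraries. Ago1 has the highest mean and Ago4 the lowest in every group.

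Genes acting downstream of GW182 were counted in the same fits. Of 13 deadenylase genes, 2 rose in the neocortex, the catalytic CCR4-NOT subunits Cnot6l and Cnot6, and 11 did not pass by edgeR, while DESeq2 called 3 of the 13. Cnot6l averaged 76.6 ± 3.01 CPM in KO and 56.3 ± 5.93 CPM in control neocortex (SD, n = 3 each), a log2 difference of 0.44 (SE 0.075; adjusted p = 0.0118 by edgeR), and Cnot6 rose by 0.36 (SE 0.063; adjusted p = 0.0133 by edgeR). In the CA1, Cnot6l rose by 0.34 (SE 0.069; adjusted p = 0.0151 by edgeR), and the other 12 did not pass by edgeR. There DESeq2 called 1 of the 13. The median log2 fold change of the deadenylase list was 0.12 in the neocortex and 0.09 in the CA1. Of 10 genes of poly(A) binding and translation repression, 1 rose in each tissue, Gigyf1, a partner of the cap-binding protein 4EHP, by 0.28 (SE 0.056; adjusted p = 0.0217 by edgeR) in the neocortex and 0.27 (SE 0.067; adjusted p = 0.0407 by edgeR) in the CA1. The 9 others did not pass by edgeR, while DESeq2 called 2 of the 10 in each tissue.

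Of 11 decapping and decay genes, 0 passed in either tissue by edgeR or DESeq2. The unadjusted edgeR p was under 0.05 for 3 of them in the neocortex and 1 in the CA1. Over all genes tested it was under 0.05 for 3049 of 16971 in the neocortex and 3159 of 18274 in the CA1. Of 9 miRNA biogenesis genes, 0 passed by either tool, with 3 and 1 under that unadjusted p. Of 12 genes of Pumilio and related repressors, 0 passed by either tool, with 1 and 2 under it. Dcp2, the decapping enzyme, had a log2 difference of 0.20 (SE 0.058; adjusted p = 0.0966 by edgeR) in the neocortex, and Mov10, a helicase that binds Argonautes, one of 0.39 (SE 0.11; adjusted p = 0.0614 by edgeR) in the CA1. Among 13 genes of Argonaute loading, modification and turnover, 1 rose in each tissue, Ankrd52, a subunit of the phosphatase complex that dephosphorylates Argonautes. It averaged 194 ± 16.0 CPM in KO and 88.1 ± 9.55 CPM in control neocortex (SD, n = 3 each), and 159.9 ± 11.7 CPM in KO and 95.0 ± 1.99 CPM in control CA1 (SD, n = 2 and 3). Its log2 fold changes were 1.14 (SE 0.083; adjusted p = 0.000409 by edgeR) in the neocortex and 0.75 (SE 0.065; adjusted p = 2.68e-05 by edgeR) in the CA1.

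The genes whose profile over the 11 libraries lay closest to that of the GW182 family, among 9417 genes, included Nol4l, Cnot6l, Tab2 and Sestd1. Their log2 CPM, centred within each tissue, differed from the family mean by a root mean square of 0.053 to 0.057, where the family profile itself had one of 0.211. Closest to the Argonaute profile, which had a root mean square of 0.125, were Tsc22d2, Dusp11, Usf3, Son and Ubr2, at 0.031 to 0.040. Likeness was measured on the same libraries as the fold changes, 4 animals gave both tissues, and the measure is a description.

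Long 3′ UTRs and the sites shown above were also looked at over all tested genes. In the neocortex, 3.73% of the 885 tested genes with a 3′ UTR at least as long as that of Ago1 rose, against 1.67% of 14728 genes with any 3′ UTR, and 0.113% fell, against 1.34%. In the CA1, 1.69% of 889 such genes rose, against 2.89% of 14913, and 3.15% fell, against 1.64%. Of genes with both a miR-30a-5p and a miR-26a-5p 8mer, 10.3% of 136 rose and 0% fell in the neocortex, and 4.38% of 137 rose and 3.65% fell in the CA1. The genes with both that rose include all 3 GW182 members in the neocortex, and Tnrc6a and Tnrc6c in the CA1. Over all genes with both 8mers, risen or not, the median log2 fold change was 0.08 in the neocortex and -0.02 in the CA1. The parts of UTR length and of the sites in these shares were not tested.

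Markers of cell types moved with genotype in the same libraries. Of 7 excitatory neuron markers, 1 fell in the neocortex, and the list summed to 4849 to 4948 CPM in KO and 5539 to 5611 CPM in control libraries. In the CA1, 1 of the 7 fell, with sums of 4589 to 5034 CPM in KO and 5103 to 5769 CPM in control libraries. Of 10 microglia markers, 3 rose in the neocortex, with sums of 521 to 572 CPM in KO and 493 to 517 CPM in control libraries. In the CA1, 6 of the 10 rose, with sums of 472 to 534 CPM in KO and 350.1 to 370 CPM in control libraries. All 6 oligodendrocyte markers fell in the CA1, where they summed to 2805 to 2820 CPM in KO and 3389 to 4115 CPM in control libraries, and 0 of the 6 passed in the neocortex by edgeR or DESeq2, with 0 at an unadjusted p under 0.05. Of 6 astrocyte markers, 0 passed in the neocortex by edgeR and 1 by DESeq2, with sums of 1501 to 1707 CPM in KO and 1291 to 1438 CPM in control libraries. In the CA1, 2 of the 6 rose, with sums of 2017 to 2239 CPM in KO and 1590 to 1675 CPM in control libraries. Of 6 inhibitory neuron, 3 oligodendrocyte precursor, 4 choroid plexus and 4 CA3 markers 0 passed in the CA1 by edgeR or DESeq2, and of the first 3 of these lists 0 by either tool in the neocortex, where 2 CA3 markers and 1 CA1 marker fell. Of 5 endothelial and mural markers 1 rose in the CA1 and 0 passed in the neocortex, and of 6 neocortex markers 1 fell in the CA1 and 0 passed in the neocortex. Among these lists at 0, the unadjusted edgeR p was under 0.05 in the neocortex for 2 inhibitory neuron, 2 oligodendrocyte precursor, 1 choroid plexus, 1 endothelial and 1 neocortex marker (DESeq2 called 1 of the neocortex markers), and in the CA1 for 1 oligodendrocyte precursor and 1 CA3 marker. Over all genes tested, 3049 of 16971 in the neocortex and 3159 of 18274 in the CA1 had an unadjusted edgeR p under 0.05. The part of these marker shifts in the Argonaute and GW182 differences was not tested.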

How the data were processed

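Polyadenylated RNA was sequenced. Per the labels' protocols, neocortex libraries used a stranded kit with ERCC spike-in RNAs and CA1 libraries an unstranded kit. The authors deposited raw counts, whole reads per Ensembl gene. The build GRCm38 and the tools GSNAP, FastQC, bedtools and SAMtools are named, per the submitters' processing notes; versions, the counting rule and its strand setting are not given in the sources used here. Symbols, exon lengths and 3′ UTRs came from GENCODE M21 (GRCm38), which matched 96.6% of identifiers. Of 10 miRNAs looked up in RefSeq, 9 matched (miR-124-3p did not).

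Tests of KO against control, 1 tissue at a time, used edgeR 4.0.16 (R 4.3.3): TMM scaling, filterByExpr, robust quasi-likelihood F-test, two-sided, Benjamini-Hochberg adjustment over all genes tested, threshold 0.05. The SE is the absolute log2 fold change over the square root of F. The fit was tested on simulated data, where false calls were somewhat above the threshold's share and the interaction test recovered small changes less often than the tests within a tissue. DESeq2 1.42.0 was an alternative. CPM use TMM-scaled library sizes, and RPKM divide them by exon length. RPKM and family shares were computed here from the deposited counts.

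The members and gene lists were chosen with earlier results of these data known. All 7 members are named; list genes past the threshold are named, up to 4 per list and tissue; for likeness, the 5 closest are named among genes averaging 10 CPM or more (log2 CPM with a prior count of 2), of which 1 is not reported here. Dicer1, Chrac1, Dcp2, Mov10 and single marker genes were picked outside this rule, after values were seen. Labels name the same animal for both tissues of 4 animals, and the pairing of tissues is taken from them. Deviations from group means correlated across 16544 genes by 0.111 to 0.143 within an animal. Between different animals of a genotype the correlations were -0.168 to 0.0335. The 2 CA1 KO libraries deviate from their mean as mirror images, so their values are not independent. No libraries were copies of each other, since counts of a group's libraries differed by a chi-square per gene of at least 9.99. Replicates are separate animals.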

Additional observations from a re-analysis of the deposited data

How the results depend on the processing

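Every member had at least 552 reads in every library, the fewest for Ago4, and groups held 2 or 3 libraries. The number of members called in the neocortex (5) stayed at 5 with DESeq2 size factors, DESeq2, no filter on low counts or 1 fit of all libraries. It was 0 to 5 with 1 library left out, 3 with the spike-in set as a term, 0 in either spike-in set alone (an analysis added after seeing the data, with fewer libraries) and 0 with library sizes scaled by ERCC reads. That scaling raised the median log2 fold change of all genes to 1.06, and the members stood at 1.22 to 1.68, all above that median. In the CA1 the number (2) became 3 without the filter on low counts, where Ago2 passed as well, and was 0 to 3 with 1 library left out. For the interaction it was 0 in every fit that left out 1 library and 0 with the animal as a replicate block, which changed no call of a member but moved their sizes, and 1 without the filter (Tnrc6b, -0.34, edgeR adjusted p = 0.0491; the cause was not tested). Directions turned for 2 genes that did not pass. Over the fits that left out 1 library, Ago3 in the CA1 ranged from -0.0428 to 0.0669 and the interaction of Ago4 from -0.0359 to 0.0925. Ago3 differed by -0.0428 in the CA1 without KO D5133, by -0.0104 in the CA1 without D5138 and by -0.0181 in the neocortex spike-in set of D5129, D5130 and D5132. The interaction of Ago4 was -0.00391, -0.0128 and -0.0359 without neocortex D5129, neocortex D5130 and CA1 D5133.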
